A study of Mus musculus with 10 samples.

Results

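Blood vessel genes of mouse mammary fat were followed in FAP-null and wild-type females on a high-fat or a low-fat diet. The set was fixed by name and held 10 genes of the 30319 with a symbol, namely Pecam1, Cdh5, Kdr, Flt1, Tek and Tie1 for the endothelium and its receptors and Vegfa, Vegfb, Angpt1 and Angpt2 for secreted ligands. All 10 reached 1 TPM in at least 2 libraries, a filter that 16932 genes passed. TPM, the unit of level throughout, counts transcripts relative to all transcripts of a library and is already divided by transcript length.

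The tissue was the inguinal subcutaneous mammary fat pad of FVB females, and whole frozen pads gave total RNA that was depleted of ribosomal RNA before sequencing. The diets were matched in ingredients, carried 60% or 10% of calories as fat, and were given between 12 and 30 weeks of age. The groups were FAP-null on high fat (Null_HFD, n = 3), wild type on high fat (WT_HFD, n = 2), FAP-null on low fat (Null_LFD, n = 3) and wild type on low fat (WT_LFD, n = 2), and the series calls them biological replicates. FAP is a surface protease of fibroblasts, and the null genotype is labelled with no word on which part of the gene was deleted or on a restriction to 1 cell type. The series title places the study in adipocyte formation and matrix signalling.

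Vascular endothelial growth factors are secreted by adipocytes and other cells and act on receptor tyrosine kinases of endothelial cells, driving the sprouting and survival of vessels. Angiopoietins act on the receptor Tek, and in this system Angpt1 from perivascular and stromal cells steadies vessels, whereas Angpt2 from the endothelium itself can oppose it. White fat depends on this supply, since its capillary bed grows with the tissue.

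The libraries were alike in the number of genes detected but not in cell makeup. In each library 14574 to 15700 genes had 1 TPM or more, and mitochondrial transcripts took 3.36% to 13.8% of TPM. Fap itself had 18.3 to 38.4 TPM in the 6 null libraries, against 37.7 to 68.8 TPM in the 4 wild-type libraries, so a transcript was still counted in null tissue and the ranges overlapped by 1 library of each genotype. The 10 adipocyte markers and the 17 other endothelial markers checked each reached 1 TPM in every library. In Null_HFD 3 and WT_HFD 2 the 10 lymphocyte markers summed to 1400 and 548 TPM and the 4 lymph node stroma markers to 1407 and 516 TPM. In the other 8 libraries the same sums were 12.2 to 20.6 TPM and 3.91 to 17.9 TPM, and the defining markers Cxcr5, Ccl19 and Madcam1 were each listed at 0 in at least 1 library. The mouse inguinal pad holds a lymph node, and both of these libraries are of the high-fat diet, so the differences were also computed without them. In whole tissue, fewer cells of a type and less RNA per cell cannot be told apart.

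On the TPM scale the 10 genes spanned a wide range of levels. Pecam1 and Vegfa stood at the top with means over the 10 libraries of 142 ± 27.8 and 141 ± 49.0 TPM (SD, n = 10), and Pecam1 was above Vegfa in 4 of 10 libraries. Cdh5 followed at 57.7 ± 14.5 TPM, Vegfb at 43.3 ± 13.7 TPM and Kdr at 36.7 ± 9.10 TPM. Below them came Tek at 30.9 ± 6.05 TPM, Flt1 at 27.1 ± 7.88 TPM, Angpt1 at 18.6 ± 7.40 TPM, Tie1 at 15.4 ± 3.54 TPM and Angpt2 at 9.15 ± 2.79 TPM. Steps from Vegfa to Cdh5, from Cdh5 to Vegfb and from Tie1 to Angpt2 held in 10 of 10 libraries. The steps from Vegfb to Kdr, from Kdr to Tek and from Angpt1 to Tie1 held in 7 of 10, that from Tek to Flt1 in 8 of 10 and that from Flt1 to Angpt1 in 9 of 10, so these neighbours lay within each other's spread.

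**Figure D1:**
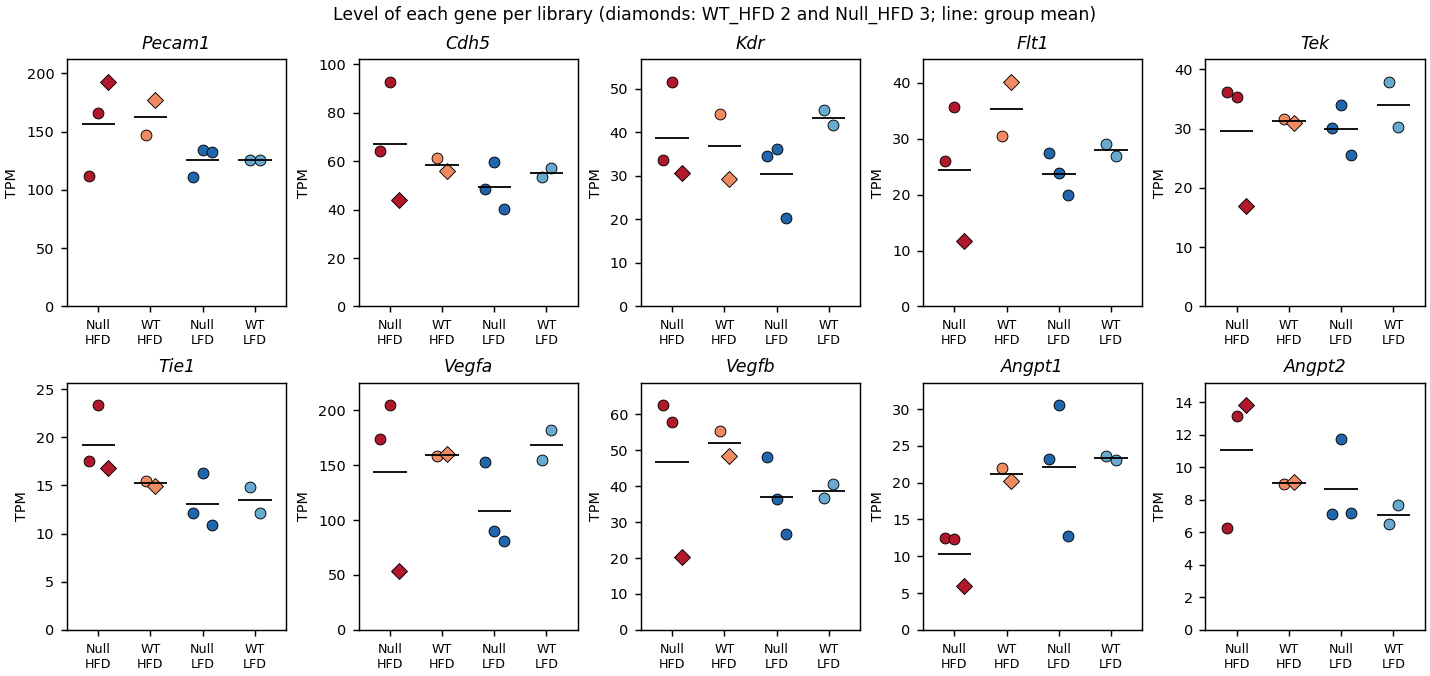
Level of each of the 10 genes in TPM, with 1 point per library, groups along the horizontal axis and a line at each group mean; diamonds are WT_HFD 2 and Null_HFD 3. The 3 Null_HFD points of Angpt1 lie at 5.90 to 12.5 TPM, below every other library. Every other gene but Cdh5 and Tek also separates some pair of groups that share a diet or a genotype. Separation of such small groups is common, and the diets in wild type separate for 45.1% of all genes.

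Pecam1 (GRCm38, chromosome 11, 106654217-106750628, minus strand) encodes an adhesion protein of endothelial junctions that platelets and many leukocytes also carry. It had 112, 166 and 193 TPM in Null_HFD, against 147 and 177 TPM in WT_HFD. In the low-fat groups it had 111, 135 and 132 TPM in Null_LFD, against 126 and 125 TPM in WT_LFD. The genotypes overlapped on both diets, and the highest values were in Null_HFD 3 and WT_HFD 2, the libraries with the lymphocyte markers; the part of those cells was not tested.

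Cdh5 (chromosome 8, 104101625-104144511, plus strand) encodes VE-cadherin, the adherens junction cadherin of endothelial cells, and did not follow Pecam1. It had 64.2, 92.8 and 43.9 TPM in Null_HFD and 61.2 and 55.9 TPM in WT_HFD. On low fat it had 48.5, 59.8 and 40.2 TPM in Null_LFD and 53.3 and 57.4 TPM in WT_LFD. Null_HFD 2 stood above every other library for this gene. The ratio of Pecam1 to Cdh5 in TPM was 4.39 in Null_HFD 3, 3.29 in Null_LFD 3 and 3.17 in WT_HFD 2, and lay between 1.74 and 2.41 in the other 7 libraries.

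The receptors of both ligand families are pairs of related genes, with Kdr and Flt1 on chromosome 5 (GRCm38, 75932827-75978458 and 147561604-147726011, both minus strand) and Tek and Tie1 on chromosome 4 (94739289-94874976, plus strand, and 118471191-118490061, minus strand). ETS factors such as Erg bind promoters of many endothelial genes. The 250 bases before the RefSeq start of each receptor gene (GRCm38.p6, read along the gene's strand, 5′ to 3′) are therefore shown. Capitals mark each match to AGGAAG, which extends the ETS core GGAA, or to its reverse complement CTTCCT. The windows are chr5:75978456-75978705 for Kdr, chr5:147726012-147726261 for Flt1, chr4:94739039-94739288 for Tek and chr4:118489850-118490099 for Tie1.
Kdr: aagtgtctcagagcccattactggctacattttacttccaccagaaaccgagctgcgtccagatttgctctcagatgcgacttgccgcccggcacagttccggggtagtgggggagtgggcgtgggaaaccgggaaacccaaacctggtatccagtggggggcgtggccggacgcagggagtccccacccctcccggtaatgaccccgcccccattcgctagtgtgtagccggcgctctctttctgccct
Flt1: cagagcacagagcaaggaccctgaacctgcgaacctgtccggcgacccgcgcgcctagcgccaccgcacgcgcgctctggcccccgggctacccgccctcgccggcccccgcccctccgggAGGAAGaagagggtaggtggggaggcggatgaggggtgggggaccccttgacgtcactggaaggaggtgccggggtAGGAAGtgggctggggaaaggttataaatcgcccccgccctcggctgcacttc
Tek: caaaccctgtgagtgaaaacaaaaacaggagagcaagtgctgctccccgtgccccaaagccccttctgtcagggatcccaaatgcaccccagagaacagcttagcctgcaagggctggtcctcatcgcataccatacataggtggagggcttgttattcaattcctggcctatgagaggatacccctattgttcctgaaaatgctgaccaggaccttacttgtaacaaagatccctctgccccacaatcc
Tie1: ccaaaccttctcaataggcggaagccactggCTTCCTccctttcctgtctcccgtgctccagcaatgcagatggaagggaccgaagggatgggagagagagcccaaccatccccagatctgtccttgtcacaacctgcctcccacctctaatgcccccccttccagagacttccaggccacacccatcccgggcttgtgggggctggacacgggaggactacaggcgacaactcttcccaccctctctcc
Flt1 held 2 matches, beginning 129 and 53 bases before the start, and Tie1 held 1, beginning 219 bases before it, while the Kdr and Tek windows held 0. The shorter core GGAA with other flanking letters was left unmarked, and on either strand it also occurs in the Kdr and Tek windows. Of 32851 mouse promoter windows of this length, 29.5% held at least 1 match on either strand, so a match was common. These counts describe letters in a window and were not related to the levels.

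Kdr encodes the main signalling receptor for Vegfa. It had 33.6, 51.6 and 30.6 TPM in Null_HFD and 44.2 and 29.3 TPM in WT_HFD, so the genotypes overlapped on high fat. On low fat it had 34.5, 36.1 and 20.3 TPM in Null_LFD, all below the 45.0 and 41.7 TPM of WT_LFD. The fitted null minus wild-type difference on low fat was -0.54 ± 0.32 (SE) on the log2(TPM + 1) scale and was not called (limma, adjusted p = 0.949). It was -0.29 without Null_LFD 3, the library lowest in Kdr.

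Flt1 encodes a receptor that binds both Vegfa and Vegfb with weak kinase activity and, as a soluble form, traps Vegfa; the values do not separate its transcripts. It had 25.9, 35.7 and 11.8 TPM in Null_HFD and 30.4 and 40.2 TPM in WT_HFD. In the low-fat groups it had 27.4, 23.9 and 19.8 TPM in Null_LFD and 29.1 and 26.9 TPM in WT_LFD. The 2 libraries with lymphocyte markers lay at opposite ends, with the lowest Flt1 in Null_HFD 3 and the highest in WT_HFD 2. The Flt1 to Kdr ratio was accordingly 0.385 in Null_HFD 3 and 1.37 in WT_HFD 2, and 0.645 to 0.976 in the other 8 libraries.

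Tek is the angiopoietin receptor, and outside 1 library its levels kept to 25.5 to 37.9 TPM. It had 36.2, 35.3 and 17.0 TPM in Null_HFD and 31.6 and 30.9 TPM in WT_HFD. On low fat it had 30.1, 34.0 and 25.5 TPM in Null_LFD and 37.9 and 30.2 TPM in WT_LFD. Null_HFD 3 was the lowest library, and the other Null_HFD values lay above both WT_HFD values.

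Tie1, a relative of Tek that pairs with it at the endothelial surface, showed another order. It had 17.5, 23.3 and 16.9 TPM in Null_HFD, above the 15.5 and 14.9 TPM of WT_HFD. It had 12.1, 16.3 and 10.8 TPM in Null_LFD, overlapping the 14.8 and 12.1 TPM of WT_LFD. Within null mice every high-fat library was above every low-fat library. That difference was 0.53 ± 0.22 (SE; limma, adjusted p = 0.72) and was not called, nor was the null minus wild-type difference on high fat of 0.31 ± 0.25 (adjusted p = 1), which was 0.17 without Null_HFD 2. The Tie1 to Tek ratio was 0.990 in Null_HFD 3, 0.660 in Null_HFD 2 and 0.391 to 0.490 in the other 8 libraries.

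Vegfa (chromosome 17, 46016993-46032369, minus strand) is the central ligand of vessel growth and a product of adipocytes. It had 174, 204 and 53.3 TPM in Null_HFD and 158 and 160.4 TPM in WT_HFD. It had 153, 90.1 and 81.0 TPM in Null_LFD, all below the 155 and 181 TPM of WT_LFD. The null minus wild-type difference was -0.69 ± 0.51 (SE) on low fat and was not called (limma, adjusted p = 0.949). Without Null_HFD 3, a library outside this comparison that enters the shared estimate of spread, the difference was again -0.69 with an unadjusted p under 0.05 and a limma adjusted p of 0.709.

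The libraries poor in Vegfa were also those poor in adipocyte transcripts. Null_HFD 3, Null_LFD 3 and Null_LFD 2 had the lowest Vegfa of the 10 libraries, and the summed TPM of the 10 adipocyte markers was lowest in the same 3 libraries, at 10180, 14230 and 12590. In the other 7 libraries that sum was 16830 to 25620 TPM, with 23190 and 25620 TPM in the other Null_HFD libraries, 17530 to 18810 TPM in WT_HFD, 20620 TPM in Null_LFD 1 and 16830 to 23410 TPM in WT_LFD. The part of adipocyte content in the Vegfa values was not tested. Relative to Adipoq, an adipocyte hormone, Vegfa was 0.0556 to 0.0853 in Null_HFD, 0.0594 to 0.115 in WT_HFD, 0.0387 to 0.0589 in Null_LFD and 0.0566 to 0.0874 in WT_LFD.

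Vegfb (chromosome 19, 6982473-6987651, minus strand) binds Flt1 and has been tied to fatty acid uptake by the endothelium. It had 62.5, 57.7 and 20.2 TPM in Null_HFD and 55.3 and 48.5 TPM in WT_HFD. On low fat it had 48.2, 36.3 and 26.7 TPM in Null_LFD and 36.7 and 40.7 TPM in WT_LFD. As for Vegfa, the lowest library was Null_HFD 3, followed by Null_LFD 3. The Vegfa to Vegfb ratio was highest in WT_LFD, at 4.22 and 4.46, against 2.48 to 3.54 in the other 8 libraries.

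**Figure D2:**
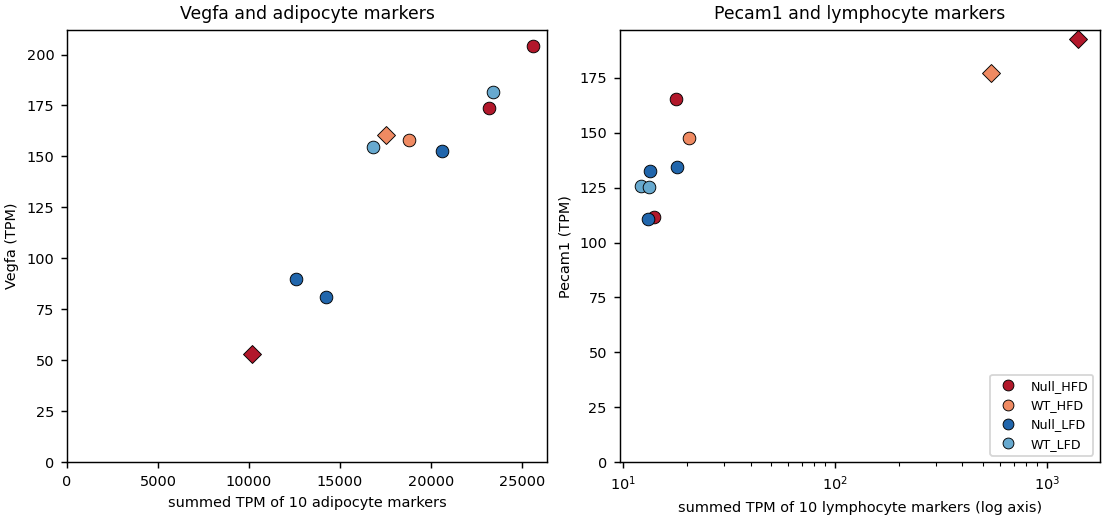
Vegfa against the summed level of 10 adipocyte markers (left) and Pecam1 against the summed level of 10 lymphocyte markers on a log axis (right), all in TPM, with 1 point per library coloured by group and diamonds for WT_HFD 2 and Null_HFD 3. The 3 libraries with adipocyte sums of 10180 to 14230 TPM have Vegfa of 53.3 to 90.1 TPM, and the 2 libraries with lymphocyte sums of 548 and 1400 TPM have the highest Pecam1.

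Angpt1 (chromosome 15, 42424723-42676977, minus strand), the ligand that activates Tek, had the largest fitted differences of the 10 genes in both averaged comparisons. It had 12.5, 12.4 and 5.90 TPM in Null_HFD, against 22.0 and 20.2 TPM in WT_HFD. It had 23.2, 30.5 and 12.8 TPM in Null_LFD and 23.6 and 23.0 TPM in WT_LFD. The 3 Null_HFD libraries were thus the 3 lowest of all 10, with Null_LFD 3 just above them, while the 4 wild-type libraries kept to 20.2 to 23.6 TPM. The 7 markers of luminal mammary epithelium summed to 299 to 839 TPM in Null_HFD, 1132 to 1254 TPM in WT_HFD, 1471 to 2423 TPM in Null_LFD and 466.4 to 997 TPM in WT_LFD, so in this list too every Null_HFD library was below every WT_HFD and every Null_LFD library. The 3 basal epithelial markers summed to 16.4 to 70.6 TPM in Null_HFD, 49.9 to 60.0 TPM in WT_HFD, 64.6 to 117 TPM in Null_LFD and 25.8 to 59.2 TPM in WT_LFD. The 8 muscle markers summed to 86.1 to 4287 TPM in Null_HFD, 185 to 2388 TPM in WT_HFD, 2769 to 8140 TPM in Null_LFD and 1652 to 2251 TPM in WT_LFD. None of these markers was listed at 0 in any library, and the part of such cells in the Angpt1 values was not tested.

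Group means of Angpt1 were 10.3 ± 3.78 TPM in Null_HFD and 21.1 ± 1.30 TPM in WT_HFD (SD, n = 3 and 2). On low fat they were 22.1 ± 8.92 TPM in Null_LFD and 23.3 ± 0.424 TPM in WT_LFD (SD, n = 3 and 2). The null minus wild-type difference on high fat was -1.04 ± 0.39 (SE; 95% interval -1.92 to -0.15) on the log2(TPM + 1) scale, with a limma adjusted p of 1 over all genes and an unadjusted p under 0.05. High fat minus low fat within null mice was -1.02 ± 0.35 (SE; 95% interval -1.82 to -0.23), with a limma adjusted p of 0.715 and an unadjusted p under 0.05. These comparisons share the Null_HFD libraries, and neither passed the threshold.

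Null_HFD 3 had the lowest Angpt1 and weighed on these values. Without it the differences were -0.72 (limma, adjusted p = 0.77) between genotypes on high fat and -0.70 (limma, adjusted p = 0.689) between diets in null mice, and neither unadjusted p was under 0.05. Without both libraries with lymphocyte markers they were -0.78 (limma, adjusted p = 1) and -0.70 (limma, adjusted p = 0.664). The genotype difference was -0.15 ± 0.39 on low fat and the diet difference was -0.14 ± 0.43 in wild type (SE). The interaction, which tests whether the genotype difference depends on diet, was -0.88 ± 0.56 (SE; 95% interval -2.14 to 0.37) with a limma adjusted p of 1, so the genotype difference was not shown to differ between diets; it was -0.56 without Null_HFD 3.

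Angpt2 (chromosome 8, 18690263-18741562, minus strand), a ligand stored and released by endothelial cells, had the lowest level of the 10 genes. It had 6.24, 13.2 and 13.8 TPM in Null_HFD and 8.98 and 9.08 TPM in WT_HFD. It had 7.14, 11.7 and 7.16 TPM in Null_LFD and 6.51 and 7.66 TPM in WT_LFD. The genotypes overlapped on both diets, and 3 null libraries held the highest values.

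Since both ligands bind Tek, their balance was followed as a TPM ratio, which was chosen after the values were seen and carries no test. Angpt2 over Angpt1 was 0.499, 1.06 and 2.34 in Null_HFD and 0.408 and 0.450 in WT_HFD. It was 0.308, 0.384 and 0.561 in Null_LFD and 0.275 and 0.332 in WT_LFD. Both ratios above 1 were in null mice on high fat, and Null_LFD 3 was above Null_HFD 1. Angpt1 over Cdh5, which sets the ligand against an endothelial gene, was 0.134 to 0.195 in Null_HFD, 0.360 to 0.362 in WT_HFD, 0.318 to 0.511 in Null_LFD and 0.402 to 0.444 in WT_LFD. Null_HFD lay below every other library on that ratio, which reuses the Angpt1 values above and is not a separate result. It also depends on the endothelial gene chosen. Set against Pecam1, Null_LFD 3 (12.8 TPM of Angpt1 and 132 TPM of Pecam1) lies below Null_HFD 1 (12.5 and 112 TPM). The 9 markers of mural cells, which include pericytes, summed to 411 to 875 TPM in Null_HFD, 449 to 504 TPM in WT_HFD, 457 to 608 TPM in Null_LFD and 501 to 520 TPM in WT_LFD. The 2 highest Null_HFD sums were above both WT_HFD sums. Null_HFD 3, the library lowest in Angpt1, had the lowest mural sum of all libraries, and the part of mural cells in the Angpt1 values was not tested.

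**Figure D3:**
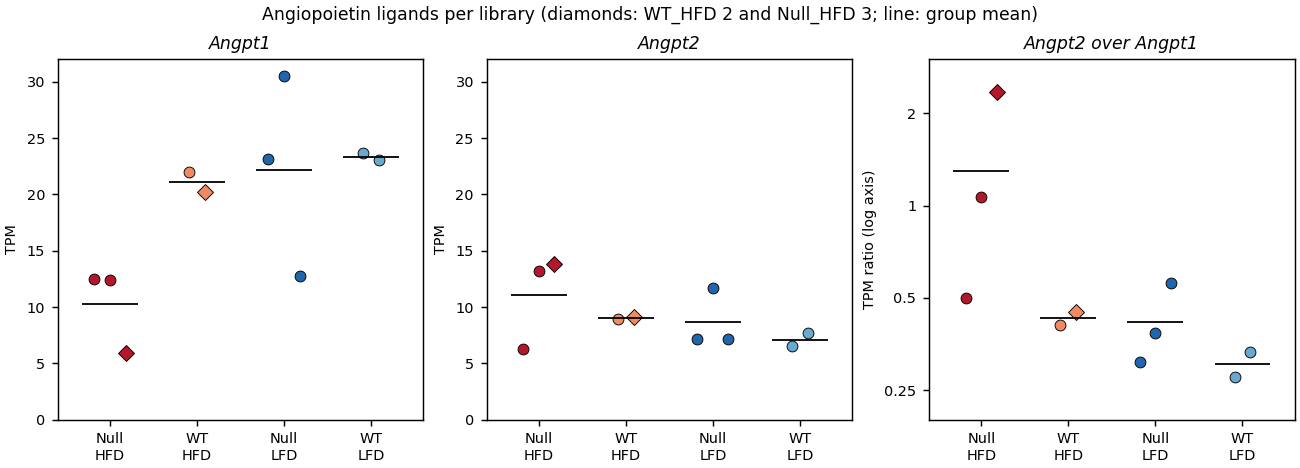
Angpt1 (left) and Angpt2 (middle) in TPM and their ratio on a log axis (right), with 1 point per library, a line at each group mean and diamonds for WT_HFD 2 and Null_HFD 3. The ratio reaches 2.34 in Null_HFD 3 and stays at or below 0.561 in every library outside Null_HFD.

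Genotype was compared over both diets and within each. In null minus wild type over both diets, 0 of the 10 genes were called, meaning a limma adjusted p no higher than 0.05, and 0% of all genes were called. An unadjusted p under 0.05 was reached by 0 members, beside 4.19% of all genes. By fitted value 2 genes were higher and 8 lower, with a median of -0.18, beside a median of 0.08 over all genes. The farthest from 0 were Angpt1 at -0.60 ± 0.28 (SE; limma, adjusted p = 0.98), Vegfa at -0.52 ± 0.36 (SE; limma, adjusted p = 0.98) and Flt1 at -0.43 ± 0.28 (SE; limma, adjusted p = 0.98). The differences of Pecam1 (-0.04 ± 0.17) and Cdh5 (-0.02 ± 0.21), the junction genes, had 95% intervals of -0.42 to 0.34 and -0.49 to 0.45. Without Null_HFD 3 the Vegfa difference was -0.22 and that of Flt1 also -0.22, and without both libraries with lymphocyte markers those of Angpt1, Vegfa and Flt1 were -0.47, -0.22 and -0.12, with 4 members higher and 6 lower. No member separated the 6 null from the 4 wild-type libraries, a separation seen with null lower for 0.378% and with null higher for 0.543% of all genes.

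On the low-fat diet 0 members were called and 0% of all genes were, and 0 members had an unadjusted p under 0.05, beside 4.43% of all genes. The null libraries lay below both wild-type libraries for Kdr and Vegfa, a pattern held by 6.3% of all genes, and above them for 0 members, beside 19.1% of all genes. Median-of-ratios scaling, which sets the middle gene of each library level, also put Pecam1, Flt1 and Tek of Null_LFD below WT_LFD, and 12.2% of all genes were lower in every null library after it. On that diet the median difference over all genes was 0.15 on the deposited scale and 0.01 after the scaling, and the median of the members was -0.16 on the deposited scale and -0.315 after the scaling. On the high-fat diet 0 members were called, beside 0.0118% of all genes, and Angpt1 alone had an unadjusted p under 0.05, beside 3.82% of all genes. There null was below wild type for Angpt1, beside 7.78% of all genes, and above it for Tie1, beside 7.73% of all genes. Without Null_HFD 3, null was above wild type for 5 members, namely Cdh5, Tek, Tie1, Vegfa and Vegfb, beside 17.9% of all genes, and below it for Angpt1, beside 16.5%; this sets 2 libraries against 2.

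Diet was compared in the same way. In high fat minus low fat over both genotypes 0 of the 10 genes were called, 0% of all genes were called and 0 members had an unadjusted p under 0.05, beside 9.69% of all genes. By fitted value 8 members were higher and 2 lower, with a median of 0.18, beside 0.11 over all genes. Tie1 stood at 0.35 ± 0.17 (SE; limma, adjusted p = 0.533), Pecam1 at 0.32 ± 0.17 (SE; limma, adjusted p = 0.538) and Angpt1 at -0.58 ± 0.28 (SE; limma, adjusted p = 0.53). Without both libraries with lymphocyte markers these were 0.40, 0.17 and -0.39. Median-of-ratios scaling brought the median over all genes to -0.01 and that of the members to 0.04, with 5 members higher and 5 lower, and turned Kdr, Flt1 and Vegfa, at 0.04, 0.12 and 0.09 before, to values below 0. The diets were separated over all 10 libraries by no member, beside 0.413% of all genes with high fat lower and 1.59% with high fat higher. Without both libraries with lymphocyte markers, Cdh5 and Vegfb were higher in every high-fat library, as were 3.47% of all genes.

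In wild type 0 members and 0% of all genes were called between the diets, and 0 members had an unadjusted p under 0.05, beside 5.61% of all genes. High fat lay below low fat for Angpt1, beside 11.5% of all genes, and above it for Pecam1, Flt1, Tie1, Vegfb and Angpt2, beside 33.7% of all genes. The groups hold 2 libraries each, and the median difference over all genes was 0.20 on the deposited scale and 0.02 after median-of-ratios scaling. After that scaling high fat lay above low fat for Pecam1, beside 21.4% of all genes, and below it for Kdr, Tek, Vegfa and Angpt1, beside 21.3%. In null mice 0 members were called, beside 0.00591% of all genes, and Angpt1 and Tie1 had an unadjusted p under 0.05, beside 6.67% of all genes. High fat lay below low fat for Angpt1, beside 4.49% of all genes, and above it for Tie1, beside 6.6%. For Angpt1 this rested on 12.5 TPM in Null_HFD 1 against 12.8 TPM in Null_LFD 3, and after median-of-ratios scaling the groups overlapped. In the interaction 0 members were called, 0% of all genes were, and 0 members had an unadjusted p under 0.05, beside 4.14% of all genes.

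**Figure D4:**
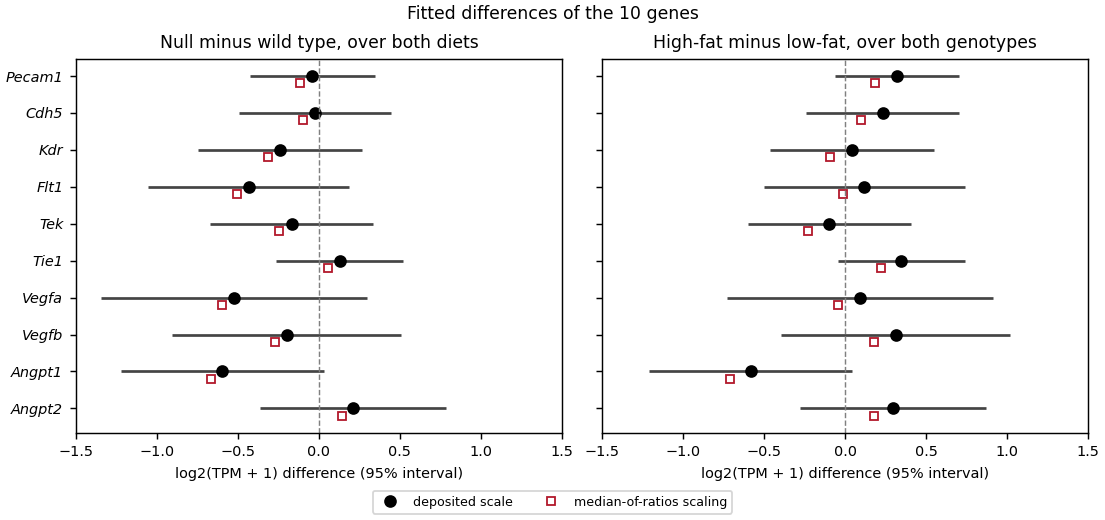
Fitted log2(TPM + 1) differences of the 10 genes, null minus wild type over both diets (left) and high fat minus low fat over both genotypes (right); black points with 95% intervals are on the deposited scale and open squares follow median-of-ratios scaling. Every interval includes 0, and Angpt1 is lowest in both panels at -0.60 and -0.58.

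The 10 genes did not vary as 1 block across the libraries. Likeness was measured as the root mean square difference of log2(TPM + 1) values after each gene was centred on its mean over the 10 libraries, with no test. The closest pairs were Cdh5 with Tie1 at 0.196, Pecam1 with Angpt2 at 0.221 and Cdh5 with Kdr at 0.236. The farthest pair was the angiopoietins, Angpt1 with Angpt2, at 0.820. In Null_HFD 3 the centred values ran apart, with Angpt1 at -1.39, Vegfa at -1.28, Flt1 at -1.08 and Vegfb at -0.99, beside Angpt2 at 0.59 and Pecam1 at 0.46. Null_HFD 2 was above the mean for all 6 endothelial genes, by 0.22 to 0.71, and Null_LFD 3 was below it for all 6, by 0.08 to 0.78 in size. The 17 other endothelial markers also summed highest in Null_HFD 2, at 950.1 TPM, and lowest in Null_LFD 3, at 477 TPM, with 516 to 717 TPM in the other 8 libraries.

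**Figure D5:**
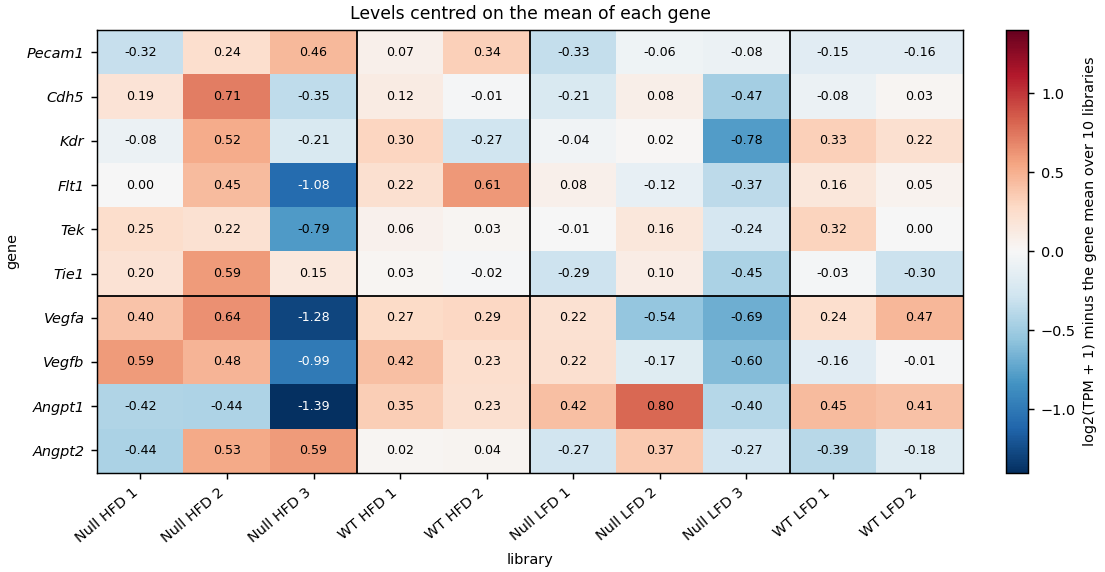
Log2(TPM + 1) of each gene (rows) in each library (columns), centred on the gene's mean over 10 libraries, with red above and blue below the mean; vertical lines part the groups and the horizontal line parts endothelial genes from ligands. Angpt1 runs from -1.39 in Null_HFD 3 to 0.80 in Null_LFD 2, while Pecam1 and Angpt2 are high in Null_HFD 3.

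By the same measure, the genes outside the set nearest to the mean of the 6 endothelial genes were Plxnd1, a semaphorin receptor of endothelial cells, at 0.077, then Stard9 at 0.090, Hexim1 at 0.0918, Cry2 at 0.0933 and Hcfc1r1 at 0.0997, of 14621 genes considered with a median of 0.413. Plxnd1 had 26.5, 36.7 and 22.7 TPM in Null_HFD, 26.9 and 26.9 TPM in WT_HFD, 24.2, 27.4 and 20.0 TPM in Null_LFD and 28.1 and 22.6 TPM in WT_LFD. Nearest to Vegfa was Pnpla2, the fat cell triglyceride lipase and one of the adipocyte markers above, at 0.168, followed by Sik2, Smoc1, Negr1 and Pfkfb1. Pnpla2 had 1092, 1239.9 and 308 TPM in Null_HFD, 873 and 1062 TPM in WT_HFD, 954, 551 and 397 TPM in Null_LFD and 691 and 1005 TPM in WT_LFD, so its 3 lowest libraries were those of Vegfa. Among the nearest to Vegfb were Rgl3 at 0.144, Ctif, Cecr2 and Prex2. Nearest to Angpt1 was Fst, which encodes follistatin, a secreted binder of activins, at 0.199, then Mnda, Ccl27a, Cp and Clmn at 0.255 to 0.274. Fst had 11.4, 9.75 and 5.60 TPM in Null_HFD, 19.9 and 16.8 TPM in WT_HFD, 15.4, 18.7 and 9.47 TPM in Null_LFD and 17.1 and 15.4 TPM in WT_LFD. Nearest to Angpt2 were Sde2 at 0.146, Rbm33, Cic, Pigo and Usp42. A gene with no variation would lie at 0.228 from the endothelial mean. It would lie at 0.587 from Vegfa, 0.476 from Vegfb, 0.617 from Angpt1 and 0.36 from Angpt2. Nearness thus also depends on how far a gene and a profile vary.

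A list of 35 other vessel genes, of which 34 passed the filter on low values, gave the surrounding pathway. Across the 7 comparisons 0 of these 34 were called, at background shares of 0% to 0.0118% of all genes. In high fat minus low fat over both genotypes 30 were higher and 4 lower by fitted value, with a median of 0.24 beside 0.11 over all genes, and 5 had an unadjusted p under 0.05, beside 9.69% of all genes. After median-of-ratios scaling 25 were higher and 9 lower, with a median of 0.11, and without both libraries with lymphocyte markers 31 were higher and 3 lower. Over all genes in that last setting, every high-fat library was higher for 3.47% and lower for 0.898%. In null minus wild type over both diets 21 were higher and 13 lower, with a median of 0.08 beside 0.08 over all genes, and 4 had an unadjusted p under 0.05, beside 4.19% of all genes. Without both libraries with lymphocyte markers 27 were higher and 7 lower. Over all genes in that setting, every null library was higher for 4.32% and lower for 1.15%. These shares, like those for diet, count full separation of the libraries and not fitted direction. They cannot show whether the lean towards higher values in null was particular to this list.

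Among the remaining ligands and co-receptors, the lymphatic ligand Figf, also called Vegfd, had 13.2, 17.1 and 10.5 TPM in Null_HFD and 21.2 and 31.0 TPM in WT_HFD. It had 12.0, 20.1 and 10.4 TPM in Null_LFD and 20.1 and 16.5 TPM in WT_LFD. The null libraries were below wild type on high fat, beside 7.78% of all genes. The difference there was -0.90 ± 0.33 (SE; limma, adjusted p = 1), or -0.47 without both libraries with lymphocyte markers. Vegfc, the other lymphatic ligand, had 4.95 to 9.40 TPM in Null_HFD and 3.74 to 4.86 TPM in WT_HFD. On low fat Vegfc had 4.999 to 6.53 TPM in Null_LFD and 3.80 to 4.66 TPM in WT_LFD. Every null library was above every wild-type library, as for 0.543% of all genes, but the nearest values were 4.95 and 4.86 TPM. The Vegfc difference over both diets was 0.46 ± 0.22 (SE; limma, adjusted p = 0.98) and was not called. Pgf, a ligand of Flt1, was low in every library, at 2.37 to 4.89 TPM in Null_HFD, 2.18 to 3.56 TPM in WT_HFD, 2.71 to 4.57 TPM in Null_LFD and 2.35 to 2.48 TPM in WT_LFD.

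Flt4, the receptor of the lymphatic ligands, had 3.13, 4.58 and 7.52 TPM in Null_HFD and 2.00 and 3.02 TPM in WT_HFD. It had 1.91, 1.80 and 1.02 TPM in Null_LFD and 1.84 and 1.80 TPM in WT_LFD. Every high-fat library was above every low-fat library, as for 1.59% of all genes, and the highest was Null_HFD 3. The diet difference in null mice was 1.19 ± 0.33 (SE; limma, adjusted p = 0.699), or 0.92 without Null_HFD 3. The co-receptor Nrp2 had 22.1, 32.4 and 28.7 TPM in Null_HFD and 22.0 and 21.7 TPM in WT_HFD. These were above the 19.2, 19.6 and 13.4 TPM of Null_LFD and the 18.6 and 19.3 TPM of WT_LFD, again as for 1.59% of all genes. The diet difference of Nrp2 over both genotypes was 0.42 ± 0.17 (SE; limma, adjusted p = 0.513), or 0.29 after median-of-ratios scaling. The co-receptor Nrp1 had 71.1 to 124 TPM in Null_HFD, 72.2 to 77.3 TPM in WT_HFD, 65.4 to 76.3 TPM in Null_LFD and 72.6 to 112 TPM in WT_LFD, and Ptprb, the phosphatase that restrains Tek, had 19.0 to 63.8 TPM, 33.0 to 35.2 TPM, 24.1 to 33.6 TPM and 30.9 to 33.2 TPM in the same groups.

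Of the endothelial genes, Cldn5, a tight junction protein, had the smallest p between genotypes over both diets. It had 45.7, 56.3 and 39.4 TPM in Null_HFD and 24.2 and 33.5 TPM in WT_HFD. It had 34.8, 33.1 and 36.8 TPM in Null_LFD and 27.2 and 15.3 TPM in WT_LFD. Null was above wild type on each diet, beside 7.73% of all genes on high fat and 19.1% on low fat. Across diets 1 WT_HFD library was above 1 Null_LFD library, and the difference over both diets was 0.72 ± 0.19 (SE; limma, adjusted p = 0.916). Esm1, a marker of sprouting tip cells that responds to Vegfa, differed by 0.95 ± 0.30 (SE; limma, adjusted p = 0.98), with 2.86, 4.54 and 1.70 TPM in Null_HFD, 0.866 and 1.12 TPM in WT_HFD, 4.36, 6.31 and 3.41 TPM in Null_LFD and 2.97 and 1.15 TPM in WT_LFD. Neither was called, and both stand out here only by rank within the list.

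The other genes with the smallest p in a comparison were not called either. Between genotypes these were Apln, the apelin peptide (1.00 ± 0.42 on high fat), and Nos3, the endothelial nitric oxide synthase (-0.43 ± 0.28 on low fat; SE). Between diets they were the sphingosine phosphate receptor S1pr1 (0.80 ± 0.32 over both genotypes), the fenestral diaphragm gene Plvap (0.96 ± 0.33 in null), and Notch1 (0.81 ± 0.30), Sox17 (0.80 ± 0.43) and Icam2 (0.97 ± 0.52) in wild type (SE). S1pr1 and Icam2 are also genes of lymphocytes, and S1pr1 had 142 TPM in Null_HFD 3 and 94.7 TPM in WT_HFD 2 against 31.9 to 62.2 TPM elsewhere. Without those libraries the S1pr1 difference was 0.31 and that of Icam2 was 0.45, and without WT_HFD 2 alone that of S1pr1 was 0.53. Icam2 stood at 1.48 without WT_HFD 1, and Notch1 at 0.49 without WT_LFD 2. For the interaction the smallest p values were those of Nos3 (0.95 ± 0.40), Notch1 (-0.85 ± 0.39) and Nrp1 (0.69 ± 0.37; SE). Without WT_LFD 2 those of Notch1 and Nrp1 were -0.52 and 0.38.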

How the data were processed

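Per the labels, RNA of 10 inguinal fat pads was sequenced as stranded, ribosome-depleted total RNA. The authors deposited 1 table of log2(TPM + 1) values, a unit inferred from the values: the lowest is 0, and values taken back to TPM sum to 946188 to 954515 in a library. The submitters' processing notes name kallisto, limma and GRCm38, with no version. TPM keeps no read numbers, so depth is unknown. Of 30320 lines, 1 had no symbol (0.00544% to 0.0108% of TPM) and was not used.

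A gene was kept if 2 or more libraries had 1 TPM of it. The 4 group means were estimated in limma (3.58.1, R 4.3.3) with variances that follow the mean (6 residual degrees of freedom). All tests are two-sided, with Benjamini-Hochberg adjustment over 16932 genes and calls made at 0.05. Differences on this scale understate fold changes of low genes. In simulated data 200 of 16932 genes were changed in each of 3 draws. Noise was drawn for each gene on its own, so shifts that a library shares across genes were not simulated. Unchanged genes called per draw numbered 0 to 7.33. The averaged genotype comparison recovered 0% of genes changed by 0.5 in log2, 25.5% at 1 and 77.8% at 2. For the averaged diet comparison the shares were 0%, 20.3% and 77.5%. A gene that was not called may thus still differ by 0.5 or 1. Between any 2 libraries at most 2.34% of tested genes had identical values.

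The alternatives were median-of-ratios scaling, a pseudocount of 0.1, no filter, a replicate block, and libraries left out. The counts of separated genes under these settings, over the members and over all genes, were added after the values were seen. Members and lists were chosen with earlier results of these data known. Named genes were all members, the 3 list genes with the smallest p per comparison, 6 further ligands, receptors and regulators, and the 5 genes nearest to a profile, predicted genes passed over. Some genes under this rule are not reported here. Coordinates are of GENCODE M21 (GRCm38) and promoters of RefSeq (GRCm38.p6), where 6 of the 10 genes matched.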

Additional observations from a re-analysis of the deposited data

Results flagged for a closer look

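Each gene was examined for a library far from the others among the null, the wild-type, the high-fat and the low-fat libraries where a set held 4 to 10, 40 sets in all; chance alone flags about 1 in 20. Among the 5 high-fat libraries Null_HFD 3 stood apart for Tek at 17.0 TPM, for Vegfa at 53.3 TPM and for Vegfb at 20.2 TPM, each the lowest value. Among the 5 low-fat libraries Null_LFD 2 stood apart for Angpt2 at 11.7 TPM, the highest value. In Null_HFD 3 the lymphocyte markers summed to 1400 TPM and the adipocyte markers to 10180 TPM, against 12.2 to 548 TPM and 12590 to 25620 TPM in the other libraries; their part in the 3 low values was not tested. In Null_LFD 2 the summed blood and platelet markers were highest of all libraries, at 12090 TPM against 1603 to 8523 TPM elsewhere, and their part in the Angpt2 value was not tested.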

How the results depend on the processing

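No member was called in any comparison under the 15 alternative settings, where the lowest adjusted p of a member was 0.362 (limma). Of 435 member values under these settings 408 kept their direction and 27 changed it, and 20 of 29 member differences kept it throughout. These 29 are the differences of every member averaged over the diets or the genotypes, and some named above. The latter are differences of Angpt1, Tie1, Kdr and Vegfa within a diet or genotype and the Angpt1 interaction. Other member differences were not counted. Median-of-ratios scaling turned the diet differences over both genotypes of Kdr (-0.0902), Flt1 (-0.0125) and Vegfa (-0.0450). Without both WT_HFD 2 and Null_HFD 3 the genotype differences of Cdh5 (0.0773) and Vegfb (0.0101) and the diet difference of Tek (0.0826) turned. Leaving out 1 library in turn gave genotype differences of -0.124 to 0.0713 for Pecam1, -0.156 to 0.110 for Cdh5, -0.259 to 0.00239 for Tek and -0.340 to 0.0561 for Vegfb. It gave diet differences of -0.102 to 0.187 for Kdr, -0.0446 to 0.336 for Flt1, -0.187 to 0.0745 for Tek and -0.0889 to 0.391 for Vegfa, and -0.417 to 0.181 for Angpt1 between genotypes on low fat. The cause was not tested.

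Members whose groups did not overlap numbered 5 after median-of-ratios scaling for genotype on low fat, where there were 2 on the deposited scale, and 1 in place of 2 for diet in null, beside 24.1% and 11.7% of all genes after that scaling. Without both WT_HFD 2 and Null_HFD 3 they numbered 6 for genotype on high fat, 2 for diet over both genotypes and 6 for diet in null, beside 65.1%, 4.36% and 22.8% of all genes. With 1 library left out the ranges were 2 to 5 for genotype on low fat (25.4% to 54.5% of all genes), 2 to 6 on high fat (15.5% to 43.0%), 0 to 1 for diet over both genotypes (2.32% to 4.88%), 6 to 10 in wild type (45.1% to 79.4%) and 2 to 6 in null (11.1% to 23.5%). No member was separated for genotype over both diets in any of these settings, beside 1.01% to 5.47% of all genes. These shares count both directions over the same 16932 genes.

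Over all genes, a pseudocount of 0.1 called 3 genes for genotype over both diets, 5 on low fat, 1 on high fat and 0 for diet in null. With no filter 15, 2 and 18 were called for genotype over both diets, on low fat and on high fat, 3 for diet over both genotypes, 5 in wild type, 0 in null and 3 for the interaction. Without both WT_HFD 2 and Null_HFD 3, 0 were called for genotype on high fat and 2 for diet in null. With 1 library left out the ranges were 0 to 2 for genotype over both diets, 0 to 1 on low fat, 0 to 3 on high fat, and 0 to 2 for each diet comparison and the interaction.

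Nothing in the labels says that the replicate numbers pair animals, so they were not taken to pair the samples. Deviations from the group mean correlated at -0.346 to 0.412 for same-numbered libraries of different groups and at -0.502 to 0.502 for differently numbered ones. In a group of 2 libraries these deviations mirror each other, so the correlations cannot decide whether the numbers pair animals. Only the null groups hold a replicate 3. A fit with the replicate number as a block thus takes its genotype differences from replicates 1 and 2 alone. Shifts of these differences under the block cannot be told apart from the effect of leaving out Null_HFD 3 and Null_LFD 3. That fit called 3 genes for diet in null. It turned the genotype differences of Cdh5 (0.179), Tek (0.0549) and Vegfb (0.161) over both diets and of Angpt1 (0.174) on low fat. It brought those of Angpt1, Vegfa and Flt1 over both diets to -0.268, -0.136 and -0.159, and on low fat those of Kdr and Vegfa to -0.344 and -0.30. For Angpt1 the block left the diet differences at -1.02 in null and -0.58 over both genotypes, and the interaction at -0.88. Their unadjusted p values were smaller than without it, at 0.000709, 0.00461 and 0.0174 (limma), with adjusted p of 0.38, 0.41 and 0.87. On high fat the genotype difference of Angpt1 was -0.71 with the block. The block called 0 members.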

Other observations

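Lymphatic vessels and the response to low oxygen were summed as further lists. The 6 lymphatic endothelial markers, which include Flt4, gave 27.1 to 63.0 TPM in Null_HFD, 33.0 to 45.2 TPM in WT_HFD, 26.1 to 52.0 TPM in Null_LFD and 27.2 to 32.6 TPM in WT_LFD, with the highest sum in Null_HFD 3. None of the 5 that were tested was called in any comparison with limma, and 1 had an unadjusted p under 0.05 for diet over both genotypes and in null, where 9.69% and 6.67% of all genes did. The 12 hypoxia targets, genes that low oxygen induces as it does Vegfa, summed to 1259 to 2006 TPM in Null_HFD, 1335 to 1969 TPM in WT_HFD, 1636 to 2273 TPM in Null_LFD and 1891 to 2318 TPM in WT_LFD. The lowest sums were those of Null_HFD 3 and WT_HFD 2. In high fat minus low fat over both genotypes 6 of the 12 were higher and 6 lower, with a median of -0.03 beside 0.11 over all genes, and 0 were called, with 3 of the lower ones at an unadjusted p under 0.05, beside 2.34% of all genes that were lower at that p.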
